A study of Homo sapiens with 12 samples.

Results

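Cells of the neuroblastoma line Tet21N that kept N-Myc but had been depleted of MondoA were set against cells that kept MondoA but had N-Myc switched off, to ask which transcripts follow one factor and not the other. The 6 arrays were taken by their labels: 3 with an siRNA against MondoA and no doxycycline (siMondoA Myc-on, here the N-Myc-only group) and 3 with a non-specific siRNA and doxycycline (siControl Myc-off, the MondoA-only group). They are 6 of the 12 Illumina bead arrays of the series. The other 6 arrays hold cells with both factors (siControl Myc-on) and cells with neither (siMondoA Myc-off), 3 of each. All cells carried the doxycycline-repressible N-Myc transgene, grew in DMEM with 10% serum and were transfected with an siRNA; doxycycline was given at 1 microgram/ml for 3 days or not at all. The model is 1 cell line, the drug was in every Myc-off culture and in no other, and the drug and the Myc state cannot be told apart. The siRNA against MondoA was likewise in every MondoA-depleted culture and in no other. Loss of MondoA and any other effect of that siRNA cannot be told apart, so following MondoA below means following this siRNA. No label states that the replicates are independent cultures; the p-values therefore measure only how far these samples spread, which can be technical.

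N-Myc and MondoA belong to connected families of transcription factors with a basic helix-loop-helix and leucine zipper. N-Myc, the product of MYCN, pairs with MAX and binds E-boxes with the core CACGTG; in neuroblastoma it is amplified in many high-risk tumours and drives growth, ribosome synthesis and cell division. MondoA, the product of MLXIP, pairs with MLX, enters the nucleus when glucose-derived phosphosugars are abundant, and acts on paired E-box-like elements called carbohydrate response elements, of which that of TXNIP is the best known. TXNIP encodes the thioredoxin-interacting protein, which restrains glucose uptake.

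Strings that match these elements can be seen in promoters of 3 genes, where binding was not tested. TXNIP was chosen by name, and CTSD and STX6 as the first genes with the E-box in the Myc and MondoA classes described below. They do not stand for their classes by motif. The E-box was in 11.2% of promoter windows of the Myc class, 9.87% of the MondoA class and 10.3% of all genes. The sequences are the 250 bases before the start of the gene in RefSeq (GRCh38.p14), all on the minus strand, written 5′ to 3′. Capitals mark the paired element in TXNIP, 2 copies of CACGNG with 5 bases between them (chr1:145996580-145996829) and the E-box CACGTG in CTSD, the gene of the lysosomal protease cathepsin D (chr11:1763928-1764177), and in STX6, the gene of the membrane fusion protein syntaxin 6 (chr1:181022871-181023120).
TXNIP: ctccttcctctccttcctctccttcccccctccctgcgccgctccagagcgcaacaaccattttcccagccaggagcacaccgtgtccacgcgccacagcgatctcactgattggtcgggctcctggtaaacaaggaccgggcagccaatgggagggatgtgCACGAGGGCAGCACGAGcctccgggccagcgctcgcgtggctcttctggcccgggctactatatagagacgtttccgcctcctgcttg
CTSD: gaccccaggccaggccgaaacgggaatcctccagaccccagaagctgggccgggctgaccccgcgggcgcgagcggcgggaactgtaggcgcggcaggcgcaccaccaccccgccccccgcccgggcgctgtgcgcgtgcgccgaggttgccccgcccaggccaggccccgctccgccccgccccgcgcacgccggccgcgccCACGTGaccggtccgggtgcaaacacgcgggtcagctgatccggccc
STX6: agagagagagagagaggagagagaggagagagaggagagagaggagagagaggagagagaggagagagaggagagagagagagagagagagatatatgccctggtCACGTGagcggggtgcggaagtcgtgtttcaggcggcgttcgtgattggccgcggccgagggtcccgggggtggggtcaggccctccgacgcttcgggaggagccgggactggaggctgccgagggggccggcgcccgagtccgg

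Detection was alike on the 6 arrays compared, with 19084 to 20726 of 47313 probes above background (40.3% to 43.8%) and a median signal of 128.8 to 143.2. Across genes, arrays within a group correlated at r = 0.988 to 0.992 and those of opposite groups at 0.954 to 0.957. The manipulated genes themselves could not check the labels: MLXIP was above background on a single array (1 of 12, siControl Myc-on) and MYCN on 0. ARRDC4, another MondoA target, was not detected on enough arrays to be tested. Of 9 adrenergic neuroblastoma markers only HAND2 and ISL1 were detected on all 12 arrays and TH and DBH, the enzymes of catecholamine synthesis, on 0, whereas 6 of 7 mesenchymal markers were detected on all 12. Of 11 markers of blood, endothelium and epithelium 0 were detected on all 12 arrays and 6 (PTPRC, CD3E, CDH5, VWF, CDH1 and KRT5) on 0. In RNA of whole cultures, fewer cells of a type and less RNA per cell cannot be told apart.

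All levels below are log2 of the normalized signal, and a change is the N-Myc-only level minus the MondoA-only level, with its standard error (SE) and limma's adjusted p, n = 3 arrays a group. TXNIP gave the plainest picture of a transcript that is present with MondoA and low without it. It lay at 7.88, 7.85 and 8.14 on the N-Myc-only arrays and at 11.17, 10.93 and 11.17 on the MondoA-only arrays. With both factors it was at 11.26, 11.29 and 11.36, and with neither at 6.72, 6.73 and 6.55. The 6 arrays with MondoA were thus all above the 6 with the siRNA against it, whatever the Myc state. TXNIP was 8.74-fold lower with N-Myc only (−3.13 ± 0.12, adjusted p = 2.37e-09), and higher by 4.64 ± 0.12 in cells with both factors than in cells with neither. It did not meet the interval set below for a gene that ignores the Myc state, since among siMondoA cells it was higher by 1.29 with Myc on.

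MYC, the gene of c-Myc rather than of the N-Myc transgene, ran against the label. It was at 8.12, 7.91 and 7.76 with N-Myc only and at 9.08, 9.07 and 9.15 with MondoA only. On the arrays with both factors it was at 6.31, 5.89 and 6.26, and on those with neither at 8.97, 8.99 and 8.84. Every Myc-on array lay below every Myc-off array, and the level with N-Myc only was between the both-factor arrays and the Myc-off arrays. The change was −1.17 ± 0.13 (adjusted p = 1.91e-05; another probe −0.85).

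A difference between the N-Myc-only and MondoA-only groups can come from either factor, since it is the sum of the average Myc effect and the average knockdown effect. The comparison of cells with both factors against cells with neither is the Myc effect minus the knockdown effect, and it uses none of the same arrays. A gene whose Myc effect is the larger therefore has the same sign in both comparisons, and one whose MondoA effect is the larger has opposite signs. Between N-Myc only and MondoA only, 5252 of the 12178 genes tested passed limma's test at an adjusted p under 0.05 (43.1%), 2671 higher (21.9%) and 2581 lower (21.2%). At 2-fold or more there were 352 higher genes (2.89%) and 664 lower genes (5.45%), so large differences lay more often on the side of lower levels with N-Myc only. For 6421 genes (52.7%) the ranges of the 3 arrays per group did not overlap. The knockdown effect itself differed between the Myc states for 1059 genes by limma's interaction test (8.7%). Between both factors and neither, 5837 genes passed (47.9%), 2808 higher (23.1%) and 3029 lower (24.9%).

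Of the 5252 genes, 1857 (15.2% of genes tested) passed with the opposite sign between both factors and neither (35.4% of the 5252 and 31.8% of the 5837), and 1224 (10.1%) passed with the same sign (23.3% and 21%). The remaining 2171 (17.8% of genes tested) passed only between N-Myc only and MondoA only (41.3% of the 5252), where a missed threshold does not show that the other comparison was level. Among the 1016 genes that passed and differed at least 2-fold, 437 had the opposite sign (43.0%), 219 the same sign (21.6%) and 360 passed in the 1 comparison only (35.4%). Genes sorted to the MondoA side thus outnumbered those sorted to the Myc side, at any size and at 2-fold.

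**Figure D1:**
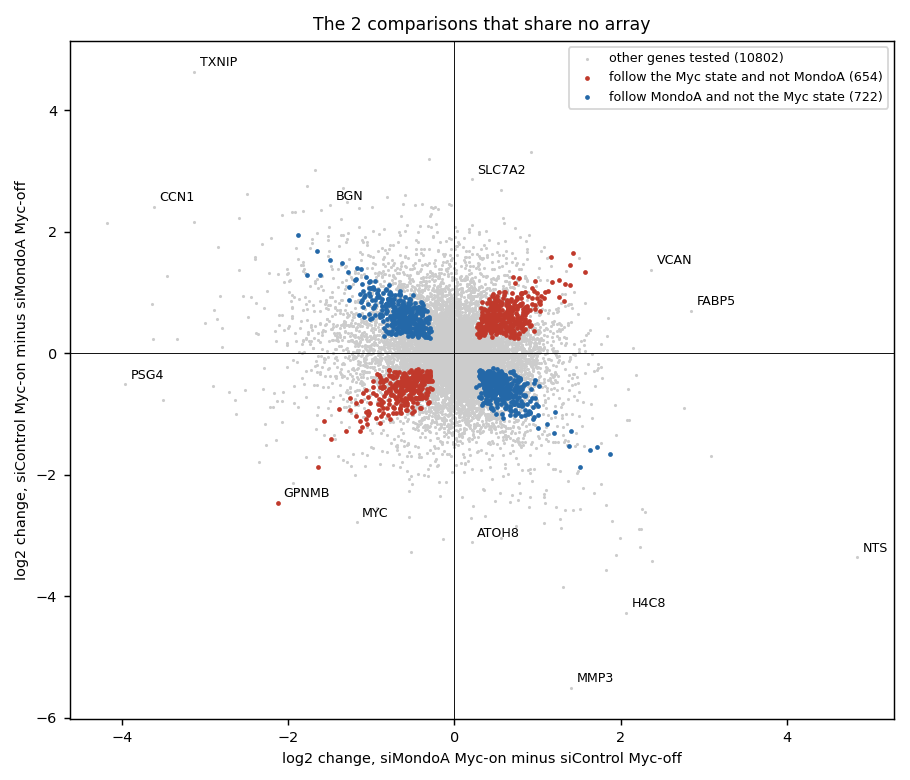
The log2 change between N-Myc only and MondoA only (x axis) against that between both factors and neither (y axis), 1 point per gene tested. The 654 genes that follow the Myc state and not MondoA (red) lie where both changes have the same sign, the 722 that follow MondoA and not the Myc state (blue) where the signs differ, as the sort sets them; TXNIP is at −3.13 and 4.64.

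The 10 transcripts furthest higher with N-Myc only were those of NTS, UTS2, FABP5, TGFA, H2AJ, VCAN, IL13RA2, H2BC9, H1-2 and NDP. NTS, which encodes the neuropeptide neurotensin, was at 10.93, 10.63 and 11.04 with N-Myc only and at 6.36, 5.70 and 6.02 with MondoA only. Both-factor arrays gave 6.45, 6.72 and 6.84, and arrays with neither factor 10.20, 9.85 and 10.03. NTS was high wherever MondoA had been depleted and low wherever it had not, a mirror of TXNIP, and the 28.7-fold change was the largest rise of the comparison by the naming rule (4.84 ± 0.18, adjusted p = 2.37e-09). UTS2, which encodes the vasoactive peptide urotensin, was at 10.90, 10.91 and 10.74 against 7.65, 7.68 and 7.98 (3.08 ± 0.15, adjusted p = 2.22e-08). Another of its detected probes gave 3.15 and a further one 0.21, which did not pass. TGFA, the growth factor TGF-alpha, was 6.77-fold higher (2.76 ± 0.18), IL13RA2, the interleukin 13 decoy receptor, 4.92-fold (2.30 ± 0.19) and NDP, the Wnt pathway ligand norrin, 4.72-fold (2.24 ± 0.14). TGFA was detected on 1 of 3 MondoA-only arrays, so its fold is measured against levels near background.

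The histone genes H2AJ (2.38 ± 0.12), H2BC9 (2.26 ± 0.20) and H1-2 (2.24 ± 0.16) were also among the 10 highest. Histone genes have near-identical copies, so which copy the probe read is uncertain. Whether the cRNA labelling captured all histone transcripts alike was not tested, here or for the histone list below. FABP5 and VCAN were the 2 of these 10 genes that followed the Myc state more than MondoA. FABP5, a fatty acid binding protein gene, was at 10.43, 10.49 and 9.96 with N-Myc only and at 7.13, 7.59 and 7.60 with MondoA only. It lay at 9.84, 9.96 and 9.84 with both factors and at 9.06, 9.16 and 9.32 with neither, so it was lowest where MondoA stood alone. Its change was 2.85 ± 0.16 (adjusted p = 8.04e-08) and that between both factors and neither 0.70 ± 0.16 (adjusted p = 0.00333). VCAN, the gene of the matrix proteoglycan versican, was 5.16-fold higher with N-Myc only (2.37 ± 0.14) and higher by 1.37 ± 0.14 with both factors than with neither. The other 8 of the 10 highest had the opposite sign between both factors and neither, from −0.90 (TGFA) to −3.43 (H2AJ).

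The 10 transcripts furthest lower with N-Myc only were those of PKD1L1-AS1, PSG4, TAGLN, C1S, CCN1, ACKR3, CFB, SLC43A2, COL12A1 and TXNIP. By group mean, TXNIP was high wherever MondoA was present and the other 9 were highest where MondoA stood alone. CCN1, a matricellular protein gene, was at 8.26, 8.05 and 8.48 with N-Myc only and at 11.77, 11.88 and 12 with MondoA only. It was at 9.70, 9.92 and 9.90 with both factors and at 7.32, 7.54 and 7.43 with neither. The 4 groups did not overlap, and the MondoA-only arrays stood above all others. CCN1 was 12.3-fold lower with N-Myc only (−3.62 ± 0.13, adjusted p = 2.37e-09). COL12A1, a fibril-associated collagen gene, had the same order of groups: 7.37, 7.27 and 7.55 against 10.61, 10.67 and 10.80 (−3.30 ± 0.13, adjusted p = 4.23e-09), and 2.59 ± 0.13 higher with both factors than with neither. TAGLN, the actin-binding protein transgelin of contractile cells, fell 12.4-fold (−3.63 ± 0.11), and CFB, complement factor B, 11-fold (−3.45 ± 0.16).

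On the C1S probe used, the gene of the complement protease C1s lay at a middle level in both other groups. It was at 6.32, 6.18 and 6.25 with N-Myc only and at 9.90, 10.01 and 9.71 with MondoA only. The both-factor arrays at 7.62, 7.84 and 7.71 and the arrays with neither at 7.35, 7.60 and 7.51 lay between them. Their difference did not pass (0.24 ± 0.11, adjusted p = 0.107), while the 12.3-fold difference between N-Myc only and MondoA only had adjusted p = 1.49e-09 (−3.63 ± 0.11). Another C1S probe did not show this middle level: it gave −2.22 between N-Myc only and MondoA only, and all 3 other groups were lower than MondoA only by about the same step (−1.97 for both factors and −2.32 for neither). SLC43A2, an amino acid transporter gene, had the layout of the first C1S probe, with −3.34 ± 0.17 in the first comparison and 0.24 ± 0.17 in the second (adjusted p = 0.257).

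Among the 10 lowest, PSG4 and ACKR3 leaned to the Myc side. PSG4, a pregnancy-specific glycoprotein gene with close relatives that its probes may also read, was at 5.30, 5.10 and 5.40 with N-Myc only and at 9.18, 9.22 and 9.27 with MondoA only (−3.96 ± 0.14, adjusted p = 2.37e-09). Other PSG4 probes moved less, by −1.55 and −1.72, and did not pass between both and neither (−0.28 and 0.13). ACKR3, a chemokine scavenger receptor gene, was at 8.69, 8.59 and 8.46 against 12.13, 11.89 and 12.21, an 11.3-fold fall (−3.50 ± 0.13). Both genes were also lower with both factors than with neither, ACKR3 by −0.77 ± 0.13 and PSG4 by −0.51 ± 0.14. PKD1L1-AS1, an antisense RNA, had the largest fall of all by the naming rule (18.1-fold, −4.17 ± 0.21, adjusted p = 3e-08) and was 2.14 ± 0.21 higher with both factors than with neither.

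**Figure D2:**
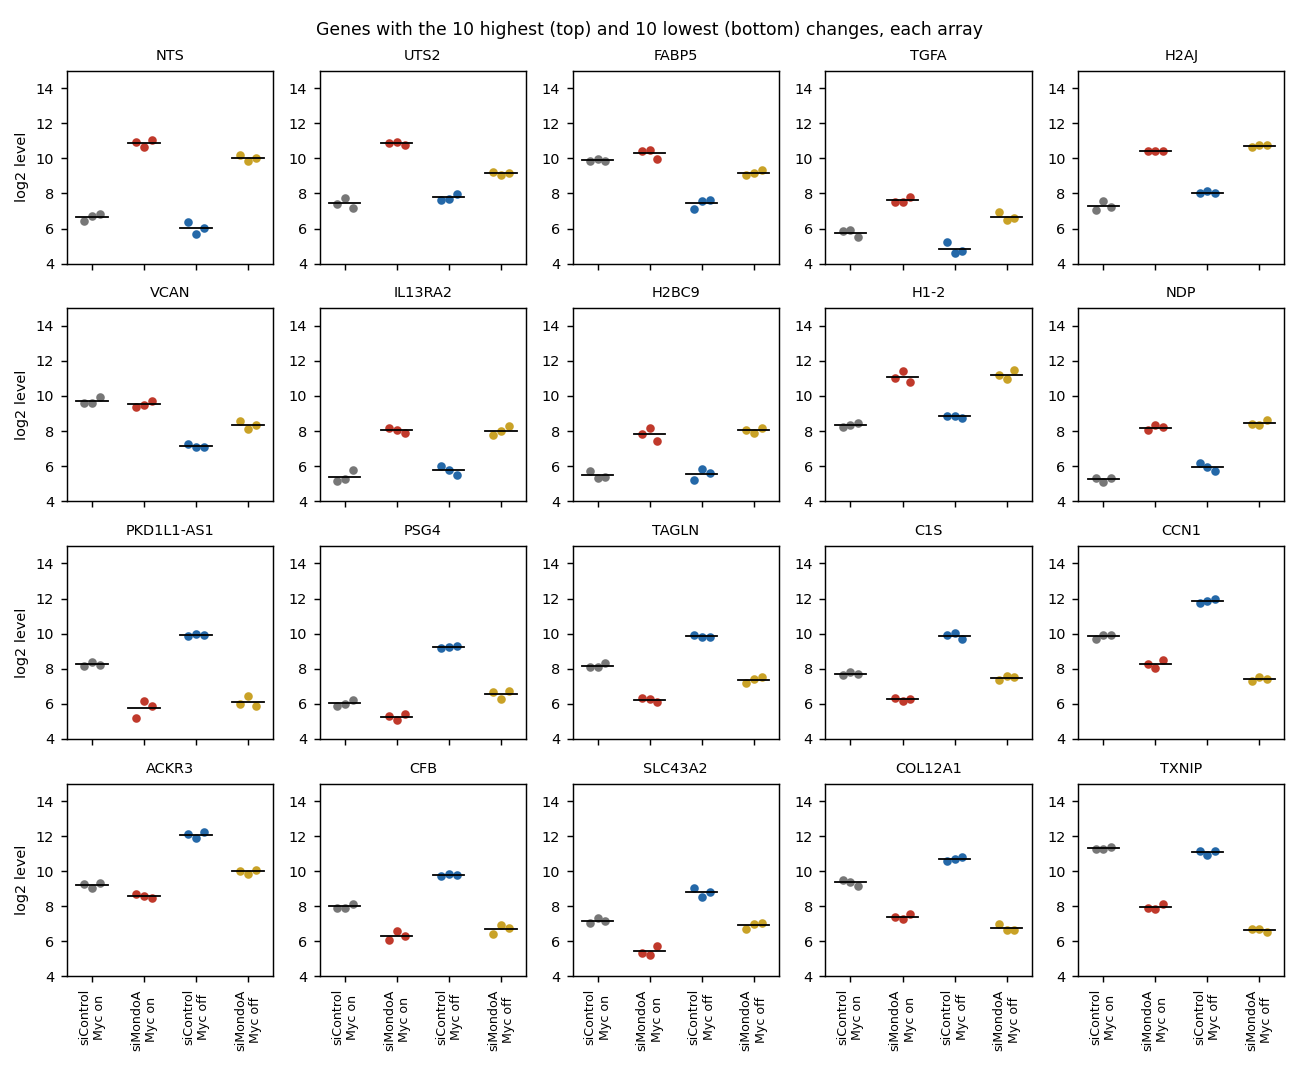
Normalized log2 level on each of the 12 arrays (points) and group means (lines) for the 10 genes highest (upper rows) and the 10 lowest (lower rows) with N-Myc only (siMondoA Myc on) against MondoA only (siControl Myc off). NTS and TXNIP split by siRNA in both Myc states, while C1S (probe used) and SLC43A2 are at the middle level both with the 2 factors and with neither.

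To find genes that follow one factor and not the other, a gene had to pass in both comparisons and, in addition, the 95% confidence intervals of both contrasts of the other factor had to lie within 1.5-fold either way. By this rule 654 genes followed the Myc state and not MondoA (5.37% of genes tested), 361 higher with N-Myc (2.96%) and 293 lower (2.41%). Another 722 genes followed MondoA and not the Myc state (5.93%), 369 higher after its depletion (3.03%) and 353 lower (2.9%). The sizes of both classes rest on the normalization: median scaling in place of quantile normalization gave 198 and 397 genes, and the deposited log2 values without background correction 1175 and 1585. In these settings 0 genes moved from one class to the other.

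GPNMB, a glycoprotein of lysosomes and melanosomes, was the furthest of the genes that followed the Myc state alone. It was at 8.46, 8.32 and 8.87 with N-Myc only and at 10.82, 10.69 and 10.50 with MondoA only. With both factors it was at 8.40, 8.44 and 8.23 and with neither at 10.88, 10.81 and 10.75. The 6 Myc-on arrays thus lay below the 6 Myc-off arrays by about the same step at either MondoA level. The class rule favours this layout. The fall was 4.36-fold (−2.12 ± 0.14, adjusted p = 3.38e-07), and the knockdown changes of GPNMB were 0.19 ± 0.14 with Myc on and 0.14 ± 0.14 with Myc off. CTSD, whose promoter is printed above, was at 10.38, 11.00 and 10.97 against 11.84, 12.06 and 11.99 (−1.18 ± 0.17, adjusted p = 0.000111), with knockdown changes of −0.06 and −0.09. The lower genes named by the same rule were ATP2B4, a plasma membrane calcium pump (−1.49 ± 0.11), VLDLR, a lipoprotein receptor (−1.39 ± 0.13), ARSD, a sulfatase-family gene (−1.57 ± 0.14), and CEACAM1, a cell adhesion molecule (−1.64 ± 0.19). CEACAM1 was detected on 1 of 3 arrays in each Myc-on group, and other ARSD probes, at −0.04 and −0.35, did not pass. ATP2B4 met the intervals, but its knockdown change with Myc off passed (−0.32, adjusted p = 0.0349), and another ATP2B4 probe was higher by 0.67 on knockdown with Myc on, outside 1.5-fold.

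Among the genes furthest higher with N-Myc at either MondoA level, E2F2 and RFC3 act in S-phase entry or DNA replication. ETV4, an ETS transcription factor gene, was at 7.49, 7.71 and 7.66 with N-Myc only and at 5.85, 6.21 and 6.09 with MondoA only (1.57 ± 0.14, adjusted p = 2.89e-06). E2F2, a transcription factor of S-phase entry, was at 9.60, 9.80 and 9.43 against 8.43, 8.13 and 8.11 (1.39 ± 0.13, adjusted p = 3.88e-06). RFC3, a subunit of the clamp loader of DNA replication, was at 8.84, 8.81 and 9.05 against 7.54, 7.64 and 7.53 (1.33 ± 0.10), its other probes giving 1.41 and 0.43, the latter not passing. In each of these genes the groups did not overlap, and the arrays with both factors lay close to those with N-Myc only. Both traits were conditions for naming a gene of this class, so they are not further evidence. CTXN1, a small membrane protein (1.43 ± 0.11), and SLCO4A1, an organic anion transporter (1.40 ± 0.13), completed the named genes.

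Of the genes that followed MondoA alone, those furthest lower with N-Myc only were EFNB3, BOC, ADGRA2, GUSB and FBLN7, and those furthest higher SNTB1, ZNF365, CCN3, FOXD1 and MSI2. EFNB3, the Eph receptor ligand ephrin-B3, was at 7.47, 7.63 and 7.24 with N-Myc only and at 9.44, 9.37 and 9.18 with MondoA only (−1.88 ± 0.18, adjusted p = 5.18e-06). GUSB, the lysosomal enzyme beta-glucuronidase, was at 9.75, 9.87 and 9.83 against 11.33, 11.45 and 11.50 (−1.61 ± 0.09, adjusted p = 9.7e-08). GUSB met the intervals, but its Myc change in siControl cells passed limma's test (−0.34, adjusted p = 0.0164). BOC, a Hedgehog co-receptor (−1.77 ± 0.14), ADGRA2, an adhesion receptor of the Wnt pathway (−1.65 ± 0.11), and FBLN7, a fibulin of the matrix (−1.50 ± 0.14), fell as well. FBLN7 was detected on 1 of 3 arrays with N-Myc only and on 2 of 3 with neither factor. Its Myc change in siMondoA cells therefore compares levels near background. All 5 genes were lower on every array with the MondoA siRNA than on any array of either siControl group, a layout that the class rule favours. GUSB and GPNMB are thus lysosome-related genes on opposite sides of the sort.

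FOXD1, a forkhead transcription factor gene, was at 11.40, 11.31 and 11.07 with N-Myc only and at 9.72, 9.56 and 9.96 with MondoA only (1.52 ± 0.13, adjusted p = 2.01e-06). SNTB1, which encodes the dystrophin-associated protein syntrophin beta, was at 7.08, 7.09 and 7.18 against 5.02, 5.54 and 5.17 (1.87 ± 0.15, adjusted p = 1.65e-06). STX6, whose promoter is printed above, was at 8.98, 8.99 and 8.85 against 7.92, 7.98 and 7.86 (1.02 ± 0.11). Each was higher where MondoA had been depleted, in both Myc states, which the class rule favours. ZNF365, a zinc finger gene (1.71 ± 0.12), CCN3, a matricellular relative of CCN1 that moved the other way (1.63 ± 0.11), and MSI2, an RNA-binding protein gene (1.40 ± 0.12), also rose; another MSI2 probe was at −0.07 and did not pass.

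**Figure D3:**
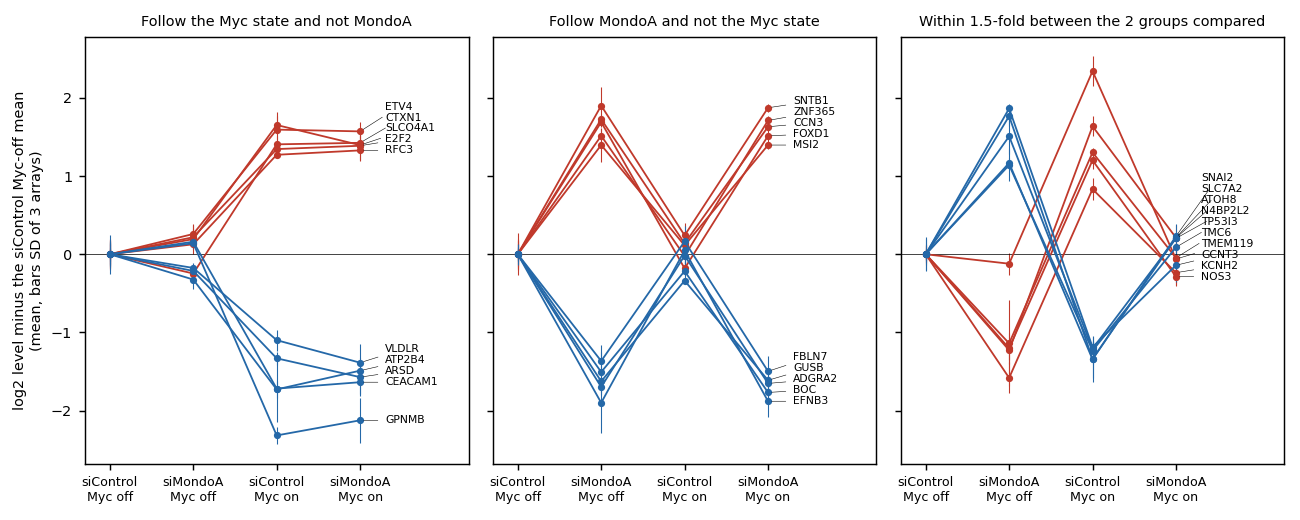
Group means of the named genes of 3 patterns, as log2 level minus the mean of the MondoA-only group (siControl Myc off), with bars of 1 SD over 3 arrays. Genes that follow the Myc state step between the Myc-off and Myc-on groups, genes that follow MondoA alternate with the siRNA, and the genes at right meet again between the 2 groups compared (outer positions); red lines are genes higher, and blue lines genes lower, with N-Myc only (left, middle) or with both factors than with neither (right).

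Some genes were nearly level between N-Myc only and MondoA only but far apart between both factors and neither. For 2030 genes (16.7%) the 95% interval of the change lay within 1.5-fold while cells with both factors and cells with neither differed past the threshold, 858 higher with both (7.05%) and 1172 lower (9.62%); 133 of the 2030 (1.09% of genes tested) also passed in the first comparison, with an interval inside those bounds. Median scaling gave 1276 such genes and the deposited values 3979. SLC7A2, a cationic amino acid transporter gene, was at 7.52, 7.47 and 7.76 with N-Myc only and at 7.49, 7.33 and 7.30 with MondoA only. It was at 9.15, 8.90 and 8.97 with both factors and at 6.26, 6.16 and 6.01 with neither. Either factor alone thus went with a middle level (0.21 ± 0.12 between them, adjusted p = 0.18), against 2.86 ± 0.12 between both and neither (adjusted p = 9.56e-09).

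SNAI2, the mesenchymal transcription factor Slug, had the reverse layout. It was at 8.05, 8.09 and 8.08 with N-Myc only and at 7.93, 7.78 and 7.83 with MondoA only, lowest with both factors (6.58, 6.68 and 6.24) and highest with neither (9.08, 9.01 and 8.94). TP53I3, a p53 target, and ATOH8, a helix-loop-helix factor gene, shared it, with −2.37 ± 0.13 and −3.11 ± 0.16 between both and neither and 0.09 ± 0.13 and 0.21 ± 0.16 between N-Myc only and MondoA only. Another TP53I3 probe gave −0.49 between both and neither and did not pass. TMEM119, a membrane protein gene, differed in being detected with both factors only (7.20, 6.82 and 6.98) and in no other group, at least 3.52-fold higher than with neither. NOS3, the endothelial nitric oxide synthase gene, was at least 4.34-fold higher with both factors than with neither, KCNH2, a potassium channel gene, 2.41 ± 0.13 higher (0.90 on another probe) and TMC6, a channel-like membrane protein gene, 2.44 ± 0.21 higher. GCNT3, a mucin-type glycosyltransferase gene, was at least 5.17-fold lower with both than with neither. For N4BP2L2 the probe used gave −2.72 ± 0.12, while others gave −2.65, −0.24 and 0.79, so its direction depends on the probe.

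Gene lists are given below by counts and medians beside those of all genes tested, of which 21.9% were higher and 21.2% lower with N-Myc only, with a median change of 0.02; the median of all genes between both factors and neither was −0.04. Growth and replication genes lay mostly on the higher side. Of 24 nucleolar and ribosome biogenesis genes 22 were higher, 0 lower and 2 did not pass (median 0.82). NOP16 (1.34 ± 0.12), NOLC1 (1.17 ± 0.12), DKC1, the pseudouridine synthase dyskerin (1.04 ± 0.11), and NOP56 (1.00 ± 0.12) led. Between both factors and neither the list's median was 0.32, and 6 of the 24, DKC1, BOP1, MRTO4, PPAN, WDR12 and NOP2, followed the Myc state and not MondoA by the intervals.

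Of 28 DNA replication genes 20 were higher, 1 (ORC6) lower, 0 lower under median scaling, and 7 did not pass (median 0.52; 1.09 between both and neither). The polymerase subunit POLE2 (1.17 ± 0.10), the initiation factor MCM10 (1.08 ± 0.16) and GINS2 of the replicative helicase (0.99 ± 0.10) followed RFC3. Here 8 of 28 genes met the intervals of the Myc class, among them the licensing factor CDT1 (0.94). PCNA, the sliding clamp, was higher with N-Myc only (0.94) but at −0.27 between both and neither, which did not pass. The mitosis list was less one-sided, with 11 of 24 higher, 2 lower and 11 not passing (median 0.30) although its median between both and neither was 1.12. Of these 24 genes 0 met the intervals of the Myc class. Their median knockdown change was −0.63 with Myc off and −0.14 with Myc on. PLK1, a mitotic kinase (1.26 ± 0.24), CCNB1, cyclin B1 (1.14 ± 0.15), and the checkpoint gene MAD2L1 (0.88 ± 0.14) were higher. CDC25C and KIF20A were lower (−0.46 and −0.40), but under median scaling 12 of the 24 were higher and 0 lower. The proliferation marker MKI67 was at −0.25 without passing, against 1.48 between both and neither.

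In the nucleotide synthesis list 14 of 21 were higher, 1 (CTPS2) lower, 0 lower under median scaling, and 6 did not pass (median 0.43), led by PPAT, the first committed enzyme of purine synthesis (1.34 ± 0.11), and PRPS2 (1.01 ± 0.14); 7 of the 21 met the intervals of the Myc class. CTPS1, a CTP synthase gene of that class, was at 0.90 ± 0.12. In serine and one-carbon metabolism 3 of 8 were higher, the mitochondrial folate enzyme MTHFD2 (1.84 ± 0.12), PSAT1 of serine synthesis (1.57 ± 0.10) and MTHFD1L (0.56 ± 0.14), and 5 did not pass. PHGDH, the first enzyme of serine synthesis, was at 0.00 with N-Myc only against MondoA only and at 1.41 between both and neither. Of 45 respiratory chain and ATP synthase genes 16 were higher, 24 under median scaling, 1 (NDUFA2) lower and 28 did not pass. Their median was 0.23, and −0.15 between both and neither, with ATP5MC3 at 0.98 ± 0.20 and COX7B at 0.90 ± 0.13.

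The histone and p53 target lists had medians above 0 between N-Myc only and MondoA only and, unlike the nucleolar, replication and nucleotide lists, below 0 between both and neither. Of 24 histone genes 21 were higher, 1 (H1-10) lower and 2 did not pass (median 1.00), and the median between both and neither was −1.49. H4C8 was at 7.63, 7.64 and 7.70 with N-Myc only and at 5.79, 5.67 and 5.31 with MondoA only (2.07 ± 0.13, adjusted p = 2.23e-07). It was at 8.92, 8.99 and 8.82 with neither factor and not detected with both, at least 13.3-fold lower there. Of 24 histone genes 16 had opposite signs in the 2 comparisons, the MondoA side, but only H1-10 met the intervals of the MondoA class. Of 17 p53 targets 7 were higher, 1 (ZMAT3) lower, 0 lower under median scaling, and 9 did not pass (median 0.40; −0.76 between both and neither). CDKN1A, the cell cycle inhibitor p21, was at 13.89, 13.85 and 13.85 with N-Myc only and at 11.91, 12.02 and 11.97 with MondoA only (1.90 ± 0.09, adjusted p = 3e-08; another probe 1.31). The nuclease gene AEN (1.64 ± 0.11), SESN1 (1.23 ± 0.11) and the ribonucleotide reductase subunit RRM2B (0.80 ± 0.18) were higher too.

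Matrix genes had the lowest median of the lists. Of 27 extracellular matrix genes 20 were lower with N-Myc only, 3 higher and 4 did not pass (median −1.28), while the median between both and neither was 0.00 with 13 genes of opposite sign. SPARC, a collagen-binding matricellular gene (−2.89 ± 0.16), and COL1A1, a chain of collagen I (−2.81 ± 0.10), followed CCN1 and COL12A1. The higher genes were VCAN, the protease gene MMP3 and LOX, the collagen cross-linking oxidase (0.62). MMP3 was at 11.66, 12.05 and 11.56 with N-Myc only and at 10.21, 10.57 and 10.28 with MondoA only, and ranged from 7.57 with both factors to 13.39 with neither. LAMC1, a laminin chain, and MMP2 followed the Myc state and not MondoA (−0.65 each).

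Of 18 mesenchymal neuroblastoma markers 7 were lower, 3 higher and 8 did not pass (median −0.14), with NOTCH2 at −1.52 ± 0.17, PDGFRB, a growth factor receptor, at −1.51 ± 0.12 and AXL, a receptor kinase, at −1.41 ± 0.12. VIM, the intermediate filament vimentin, was at −0.08 and did not pass. Of the 7 adrenergic markers tested GAP43, a growth cone protein gene, was at least 2.91-fold higher, GATA2 was higher (0.41 ± 0.14), GATA3 lower (−0.61 ± 0.22) and 4 did not pass. Of 7 tested markers of blood, endothelium and epithelium CD14 was at 0.84 ± 0.22 and CD68 at −0.46 ± 0.14, and 5 did not pass; their part in the other results was not tested.

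Lipid synthesis genes were lower with N-Myc only. Of 18 cholesterol genes 14 were lower, 10 under median scaling, 0 higher and 4 did not pass (median −0.61, and −0.39 between both and neither). INSIG1, the sterol-sensing regulator, was at −2.22 ± 0.11, DHCR7 at −2.11 ± 0.13, TM7SF2 at −1.93 ± 0.13 and LSS, lanosterol synthase, at −1.83 ± 0.12 (another probe −0.86). Between both and neither the INSIG1 probe used gave −0.89. Another INSIG1 probe, at −2.27 in the first comparison, gave 0.53 there (limma's adjusted p = 0.0466). HMGCS1 and SC5D did not pass (−0.36 and −0.18) but were at −2.00 and −2.12 between both and neither. Of 14 fatty acid synthesis genes 10 were lower, 6 under median scaling, 0 higher and 4 did not pass (median −0.47; −0.07 between both and neither). SREBF1, the lipogenic transcription factor, was at 8.22, 8.13 and 8.22 with N-Myc only and at 10.77, 10.50 and 10.92 with MondoA only (−2.54 ± 0.12, adjusted p = 2.02e-08; other probes −2.53 and −0.79). The desaturase gene SCD was at −2.48 ± 0.12 and ACACA, acetyl-CoA carboxylase, which followed MondoA and not the Myc state, at −0.68 ± 0.12.

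Of 15 MondoA and ChREBP targets 7 were lower, 2 higher and 6 did not pass (median −0.10), so TXNIP was not typical of that list. HK2, a hexokinase gene, went the other way, at 8.34, 8.49 and 8.46 with N-Myc only and at 6.60, 6.32 and 6.84 with MondoA only (1.84 ± 0.13; another probe 1.13). Of 27 glycolysis genes 7 were higher, 5 lower and 15 did not pass (median 0.09); the glucose transporter SLC2A3 (−1.94 ± 0.11) and the aldolases ALDOC (−1.42 ± 0.11) and ALDOA (−0.89 ± 0.15) were lower. SLC2A1, the main glucose transporter, was the 1 glycolysis gene that followed MondoA and not the Myc state (−0.81). Of 9 tested genes of the MYC network MYC, MXD4 (−0.95 ± 0.13) and MXD3 (−0.92 ± 0.24) were lower, 0 were higher and 6, MAX and MLX among them, did not pass; the median was −0.27.

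Of 14 genes of glutamine and amino acid transport 2 were higher, SLC7A5 (0.62 ± 0.10) and SLC38A1 (0.58 ± 0.15), 2 lower, SLC38A2 and ASNS, and 10 did not pass (median 0.13). Under median scaling 3 were higher and 0 lower, and another ASNS probe, at 0.04, did not pass. Of 17 ATF4 and amino acid stress genes 9 were lower, 4 higher and 4 did not pass (median −0.37; 0.30 between both and neither). NUPR1, a stress-induced chromatin protein gene (−1.83 ± 0.20), and DDIT3, the transcription factor CHOP (−1.11 ± 0.14), were lower. ATF4 itself was higher and met the intervals of the Myc class (0.43), whereas DDIT4 (−0.43) and CEBPB (−0.37) met those of MondoA.

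Lysosome, interferon and antigen presentation genes had 0 members higher. Of 23 lysosome and autophagy genes 15 were lower and 8 did not pass (median −0.64; −0.59 between both and neither), and 8 of the 23 followed the Myc state and not MondoA, GPNMB, CTSD, GLB1, LAMP1, SQSTM1, CTSL, GABARAPL1 and NPC2. NEU1, a sialidase gene (−2.30 ± 0.12), was lower in both comparisons, while GAA, the acid glucosidase (−1.75 ± 0.13), and CTSB, cathepsin B (−1.53 ± 0.14), were higher between both and neither (0.86 and 0.56). Of 19 interferon response genes 16 were lower and 3 did not pass (median −0.93; −0.57 between both and neither). IRF9 (−2.06 ± 0.13) and IRF7 (−1.63 ± 0.20), transcription factors of the response, were lower in both comparisons. BST2, the virus-tethering protein tetherin, was at −1.96 ± 0.18 with N-Myc only and at least 3.74-fold higher with both factors than with neither, and CASP1, the inflammatory caspase, was at least 2.89-fold lower with N-Myc only. Of 14 HLA class I and peptide loading genes 10 were lower and 4 did not pass (median −0.62), with HLA-B at −2.64 ± 0.13 and tapasin, TAPBP, at −2.59 ± 0.13. HLA probes can read near-identical relatives, and other TAPBP probes gave −0.94 and −1.27.

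**Figure D4:**
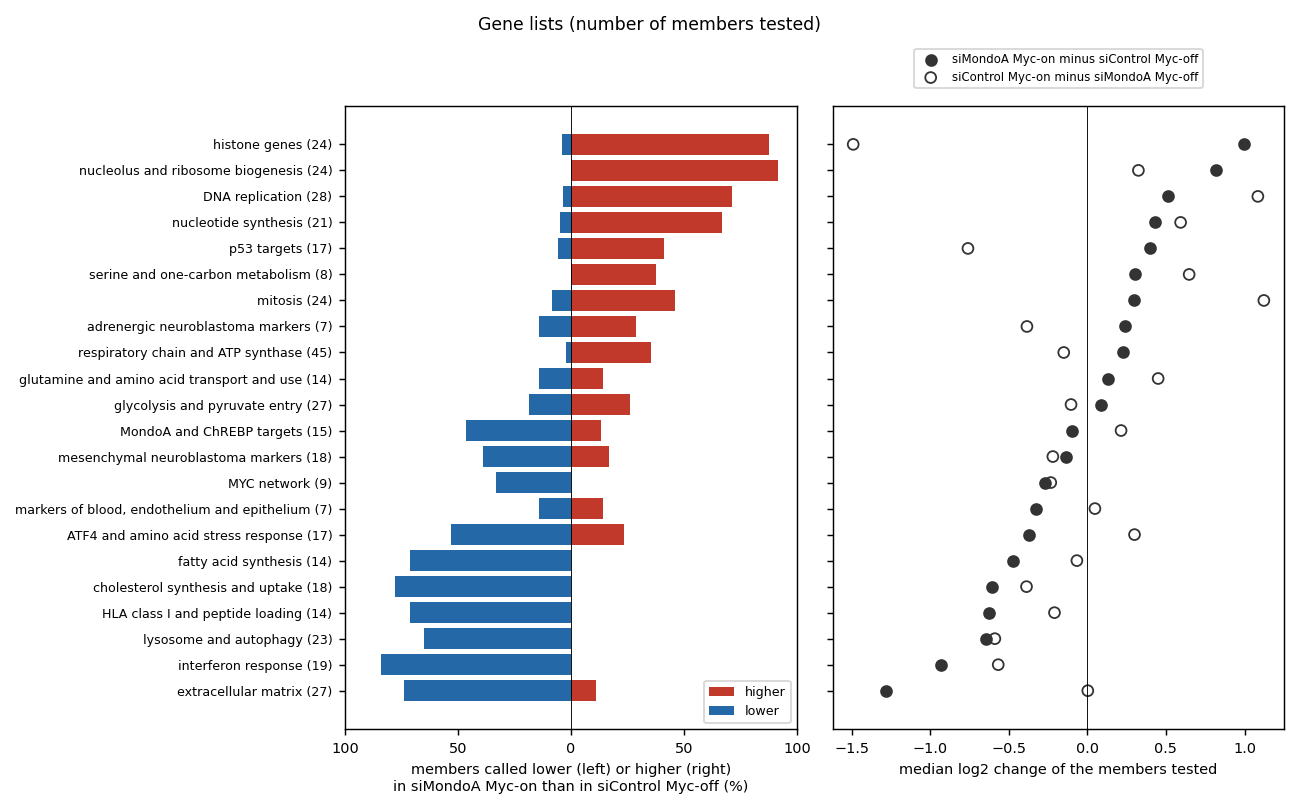
Share of each list's tested members that were higher (red, right) or lower (blue, left) with N-Myc only than with MondoA only, and at right the median log2 change of the members in that comparison (filled) and between both factors and neither (open). Histone genes have filled and open points on opposite sides of 0 (1.00 and −1.49), while lysosome genes have both below 0 (−0.64 and −0.59); of all genes 21.9% were higher and 21.2% lower.

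The E-box CACGTG was looked for on both strands of the RefSeq promoter windows, from 250 bases before to 50 after the start. Of the genes eligible for this search, 9741 of 11737 had a window (83.0%), and 999 of these held the motif (10.3%). Of the genes that followed the Myc state and not MondoA 62 of 552 with a window held it (11.2%; 13.7% of the higher and 8.3% of the lower genes), and of those that followed MondoA and not the Myc state 59 of 598 (9.87%). The list shares ran from 0 of 23 for histone genes and 0 of 13 for HLA genes to 3 of 8 for the MYC network (37.5%), 7 of 19 for lysosome genes (36.8%) and 8 of 18 for nucleolar genes (44.4%). Nucleolar and lysosome genes lie on opposite sides of the comparison. The paired element spelled out above, a copy of which is itself an E-box where its N is T, was in 15 of 9741 windows (0.154%), TXNIP among them. Its match begins 88 bases before the start of TXNIP. In the MondoA class the paired element was in 2 of 316 windows of genes higher after depletion and 0 of 282 of lower genes. In the Myc class it was in 1 of 552 windows. A match is a string of letters, not a measured binding site.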

How the data were processed

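Per the labels' protocols, Tet21N RNA came from RNeasy Plus columns and was labelled as biotin cRNA with an Ambion MessageAmp kit. The authors deposited probe intensities, linear and not normalized by their values, with a detection score taken as 1 minus the detection p-value. They also deposited log2 values, found to equal log2 of quantile-normalized intensities without background correction. The submitters' processing notes name lumi; its role and the scanner software are not given in the sources used here. Of 47323 probes 30108 had 1 gene symbol in the platform annotation, 8 several and 17197 none. Background correction and quantile normalization used neqc (offset 16) of limma 3.58.1 in R 4.3.3. Probes detected (p under 0.05) on at least 3 of 12 arrays were kept, and the brightest probe of each gene gave 12178 genes. A cell means model over 12 arrays (lmFit, eBayes, 8 residual degrees of freedom) gave all contrasts, with Benjamini-Hochberg adjustment over all genes. Without a slide or scan date in the sources used here, no batch was tested, and precision is limited by the number of arrays. The steps from normalized values were tested on simulated data.

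Genes named were the 10 highest and 10 lowest changes among genes that passed, had a non-provisional symbol and did not overlap between groups; the 5 furthest per class and direction; up to 4 members per list with those a list is described by; and MLXIP, MYCN, MYC, TXNIP and ARRDC4. The 22 lists, the classes and this rule were chosen with earlier results of these data known. CTSD and STX6 were the first genes of their classes with the motif. For a gene detected on 0 arrays of a group, the fold is a bound ("at least"): the brighter mean against the dim arrays, each at its lowest detected signal or the probe's own if that is higher. The motif count left out chromosome 8. The main fit did not pair the samples by replicate number. Once each gene's group mean was taken off, 0 of 18 same-numbered pairs of arrays correlated above 0.1 across genes. This cannot show that the design was unpaired. The alternatives were the deposited values, median scaling, other detection filters, the mean of a gene's probes, separate fits, a replicate block and leaving out each array.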

Additional observations from a re-analysis of the deposited data

Results flagged for a closer look

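Of the 20 genes furthest apart between N-Myc only and MondoA only, 11 had a knockdown change that differed between the Myc states by limma's interaction test, which 8.7% of all genes tested passed. The values are log2 differences, the siMondoA effect in Myc-on cells less the same effect in Myc-off cells. The difference was 2.87 ± 0.18 (SE) for CCN1 (adjusted p = 7.45e-06), 2.04 ± 0.21 for UTS2, 1.96 ± 0.18 for COL12A1, 1.90 ± 0.20 for PSG4 and 1.46 ± 0.18 for ACKR3. It was 1.37 ± 0.22 for CFB, 1.30 ± 0.30 for PKD1L1-AS1, 1.07 ± 0.16 for TXNIP and 0.92 ± 0.16 for C1S. Differences of the other sign were found for VCAN (−1.39 ± 0.20) and FABP5 (−1.33 ± 0.23). These contrasts use the same arrays as the comparison that chose the genes. For these genes the change between N-Myc only and MondoA only is not the sum of 2 constant effects.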

How the results depend on the processing

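Between N-Myc only and MondoA only, 4734 to 5531 genes passed over the other settings and 4469 to 5371 when 1 array was left out, against 5252. The share of calls that were higher was 50.9%, or 57.5% with median scaling. The class of genes that follow the Myc state and not MondoA held 1175 genes with the deposited log2 values and 198 with median scaling, the MondoA class 1585 and 397, and the genes within 1.5-fold between the 2 groups numbered 3979 and 1276. Of the 654 Myc-class genes 631 were kept with the deposited values and 156 with median scaling, and of the 722 MondoA-class genes 687 and 273; the cause was not tested. Leaving out 1 array gave 485 to 580, 538 to 633 and 1675 to 1920 for these 3 counts, 1019 to 1162 for the same sign (1224) and 1602 to 1842 for the opposite sign (1857). The main fit did not use replicate numbers, and a replicate block gave 5187 calls. Of the named genes' values, 1 turned its sign past the threshold: CD68 between both factors and neither was −0.69 with the mean of all probes (adjusted p = 0.0014), against 0.37. The MYC network median (−0.27) changed sign in 1 setting, reaching 0.05. List medians that moved by more than 1.5 times with the deposited values were those of p53 targets (0.40 to 0.12), histone genes (1.00 to 0.54), interferon genes (−0.93 to −0.58), the MYC network (to −0.09), glutamine genes (0.13 to 0.05), adrenergic markers (0.24 to 0.08) and markers of other cells (−0.33 to −0.10). With median scaling they were those of the respiratory chain (0.23 to 0.44), glycolysis (0.09 to 0.30), fatty acid synthesis (−0.47 to −0.30), ATF4 genes (−0.37 to −0.18), MondoA targets (−0.10 to −0.06) and lysosome genes (−0.64 to −0.39). Over all settings MondoA targets ranged from −0.34 to −0.05 and mesenchymal markers from −0.22 to −0.08.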
